A study of Homo sapiens with 9 samples.

Results

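HepG2 cells exposed to 125 µM tris(2-butoxyethyl) phosphate (TBOEP) were compared with cells exposed to 2.5 µM, to describe what a 50-fold higher concentration adds. HepG2 is an established human liver tumour line that still makes many hepatocyte products, and TBOEP is a phosphate triester that serves as a plasticiser and flame retardant, for example in floor polish. Of the 9 libraries in the study, 3 come from cells at 125 µM and 3 from cells at 2.5 µM, and all genes with enough reads were compared between these 6. The other 3 come from cells given only the solvent. All 9 cultures received 0.1% DMSO for 72 h. Each culture was seeded, dosed and extracted on its own, and the labels report no cytotoxicity at either concentration. A single tumour line stands for liver here, so no other liver cell is present. Of 57773 annotated features, 12901 had enough reads to be tested.

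Organophosphate esters are lipophilic compounds that liver cells take up and oxidise or hydrolyse. Hepatocytes respond to such compounds through ligand-activated nuclear receptors that switch on cytochrome P450 enzymes and transporters, and through stress pathways such as the one that ATF4 drives when translation is restrained. Hepatocytes also secrete most of the proteins of blood plasma.

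Levels are CPM, the counts of a library scaled to a common total (TMM), listed for replicates 1, 2 and 3 in that order. Differences are log2 fold changes, 125 µM over 2.5 µM, ± their standard error, with adjusted p-values from edgeR's quasi-likelihood test over all 12901 genes; "rose" and "fell" mean an adjusted p under 0.05. The 95% intervals are per gene and unadjusted, so an interval can exclude no change for a gene that did not pass. Depth was 2480964 to 11885877 gene reads per library, and replicate 3 of both exposed groups was shallow, with 2670690 reads at 125 µM and 2480964 at 2.5 µM. On the first principal component of all 9 libraries, which held 53.5% of the variance, the 125 µM libraries lay at 30.7, 39.59 and 39.76 and the controls at -49.96, -24.78 and -34.62. The 2.5 µM libraries lay between them at -9.277, -9.075 and 17.66, so that replicate 3 stood apart from the other two, and it was also the lowest of all on the second component, at -37.82. At 2.5 µM, replicate 1 stood apart in its share of intron reads, 7.189% of gene reads against 4.947 and 4.59%, where the 125 µM libraries had 4.97, 4.775 and 4.479%. The part of these libraries in each result was measured by leaving each out in turn.

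Between the concentrations 1925 genes differed, 14.9% of those tested: 965 were higher at 125 µM (7.48%) and 960 lower (7.44%). The median log2 fold change over all genes was -0.00. Of the called genes, 192 were at least 2-fold higher (1.49% of genes tested) and 243 at least 2-fold lower (1.88%), while 940 had changed by less than 1.5-fold. All 3 libraries of one group lay above all 3 of the other for 4237 genes, 32.8% of those tested, 16.9% of all genes being higher and 15.9% lower. On RPKM values tested with limma the split was uneven, with 666 genes higher and 302 lower (68.8% higher, against 50.1% on counts). Without replicate 3 at 2.5 µM, 1992 genes were called, 978 higher and 1014 lower. The count fell to 799 without replicate 2 at 125 µM, to 1043 without replicate 1 at 125 µM, to 1252 without replicate 3 at 125 µM, and to 1015 without replicate 2 at 2.5 µM. Cells at either concentration were compared as bulk RNA, in which fewer cells making a transcript and less of it per cell cannot be told apart.

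The genes with the largest rises were mostly barely expressed at 2.5 µM. AQP3, a channel for water and glycerol, was the most abundant of the 12 largest rises, with 40.3, 34.2 and 43.3 CPM at 125 µM and 6.41, 7.25 and 10.5 CPM at 2.5 µM (log2 fold change 2.38 ± 0.21, adjusted p = 2.14e-05). Every 125 µM library exceeded every 2.5 µM library for it, and the controls, at 9.64, 12.7 and 5.39 CPM, lay with the 2.5 µM cells. A second aquaporin, AQP8, went from 0.0956, 0.744 and 1.21 CPM at 2.5 µM to 4.13, 5.98 and 4.41 CPM at 125 µM (log2 fold change 3.23 ± 0.46, adjusted p = 0.00041); 40.6% of its reads were intronic. NOS3, the endothelial nitric oxide synthase, had 25.00, 22.7 and 31.9 CPM at 125 µM and 3.83, 4.74 and 4.44 CPM at 2.5 µM (log2 fold change 2.58 ± 0.21, adjusted p = 1.4e-05), a 5.97-fold difference. ESAM, an adhesion molecule first known from endothelium, had 11.9, 12.5 and 9.18 CPM at 125 µM and 1.63, 1.95 and 1.62 CPM at 2.5 µM (log2 fold change 2.70 ± 0.23, adjusted p = 1.7e-05). NOS3 overlaps ATG9B and ESAM overlaps VSIG2 in the annotation; these neighbours had 48 and 69 reads over the 6 libraries, against 567 at 125 µM for NOS3 alone and 274 for ESAM. Both genes were about as low in the controls as at 2.5 µM, with 3.11 ± 1.19 CPM and 1.82 ± 0.422 CPM (mean ± SD, n = 3).

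Other large rises included signalling proteins and secreted proteins. PLCH2, a phospholipase C, stood at 12.4, 14.9 and 13.2 CPM at 125 µM and 1.82, 0.744 and 2.83 CPM at 2.5 µM (log2 fold change 3.20 ± 0.30, adjusted p = 2.14e-05). LAIR2, a secreted collagen-binding member of the leukocyte receptor family, and OSCAR, an osteoclast-associated receptor, rose by 3.14 ± 0.43 and 3.03 ± 0.32, to means of 7.37 and 6.42 CPM. SH2D5, an adaptor protein, had 17.1, 16.4 and 21.7 CPM at 125 µM and 2.68, 3.25 and 4.04 CPM at 2.5 µM (log2 fold change 2.51 ± 0.24, adjusted p = 2.41e-05). PDE2A, a phosphodiesterase of cyclic nucleotides, rose by 2.84 ± 0.43, CA12, a membrane-bound carbonic anhydrase, by 2.82 ± 0.42, and METRNL, a secreted protein, by 2.42 ± 0.34. At 2.5 µM, LAIR2, OSCAR, PDE2A, CA12 and AQP8 had between 12 and 20 reads in the 3 libraries together, so their fold changes rest on few reads there. None of the genes named here lost its call when a single library was left out.

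**Figure D1:**
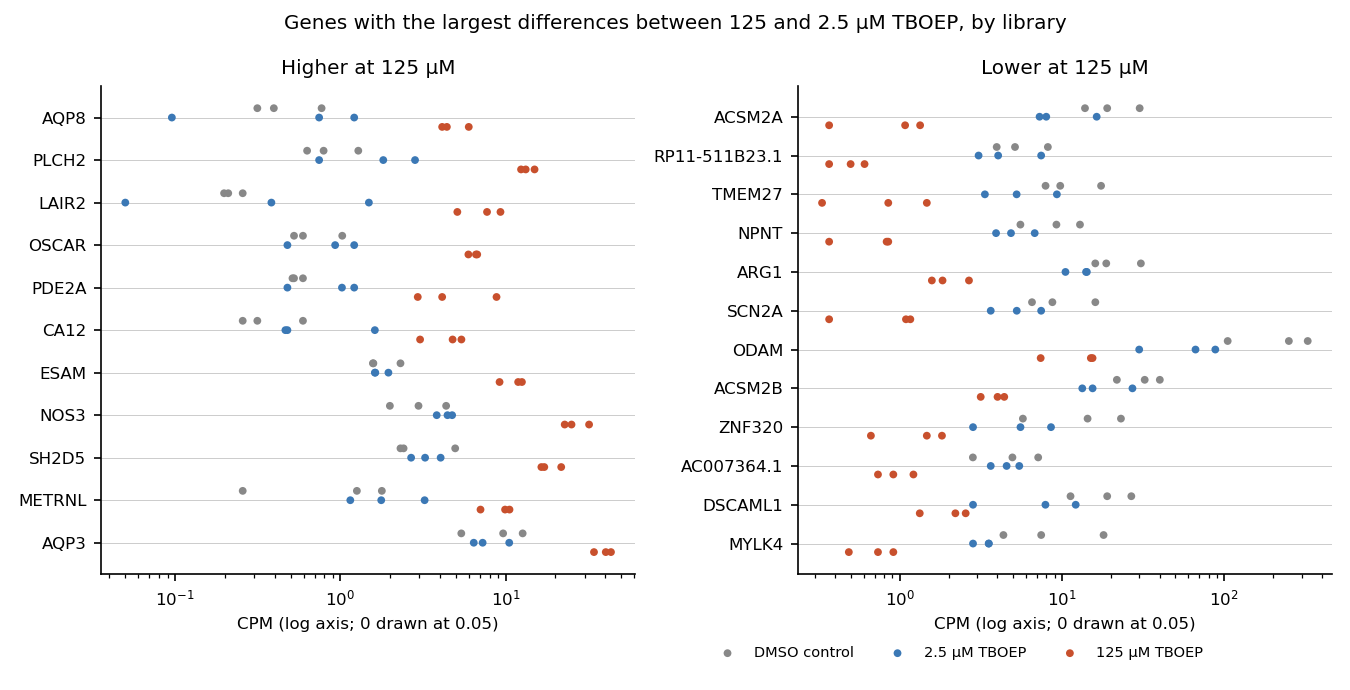
CPM (log axis, 0 drawn at 0.05) of 11 of the genes with the largest rises (left) and the 12 with the largest falls (right) between 2.5 and 125 µM, one point per library. Orange points are 125 µM, blue 2.5 µM and grey the solvent control. The orange and blue points do not overlap for any of these genes, which the choice of genes required, and the blue points lie near the grey ones for most rises, while ODAM steps down from control to 2.5 µM and again to 125 µM.

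The largest falls included enzymes of liver metabolism. ACSM2A, a mitochondrial enzyme that activates medium-chain and aromatic acids, had 1.33, 1.08 and 0.367 CPM at 125 µM and 16.4, 7.99 and 7.27 CPM at 2.5 µM (log2 fold change -3.36 ± 0.45, adjusted p = 0.00029). Its close neighbour and near-copy ACSM2B had 4.00, 3.15 and 4.41 CPM at 125 µM and 27.2, 15.4 and 13.3 CPM at 2.5 µM (log2 fold change -2.42 ± 0.31, adjusted p = 0.000193). The authors' counting could split reads between these near-identical genes, so their separate levels are uncertain. ARG1, the arginase that ends the urea cycle, had 2.67, 1.58 and 1.83 CPM at 125 µM and 14.1, 14.2 and 10.5 CPM at 2.5 µM (log2 fold change -2.73 ± 0.30, adjusted p = 6.18e-05); it overlaps MED23, which had 3847 reads over the 6 libraries, where ARG1 had 46 at 125 µM and 326 at 2.5 µM. ODAM, a secreted protein of enamel-forming epithelium, was at 327, 105 and 249.9 CPM in the controls, 66.5, 88.03 and 29.9 CPM at 2.5 µM and 15.1, 7.39 and 15.4 CPM at 125 µM, so that it was lower at each step (log2 fold change -2.48 ± 0.43, adjusted p = 0.00169 for 125 over 2.5 µM). TMEM27, an amino acid transporter partner also named collectrin, had 0.850, 0.332 and 1.47 CPM at 125 µM and 3.35, 9.29 and 5.25 CPM at 2.5 µM (log2 fold change -3.18 ± 0.57, adjusted p = 0.00197). The matrix protein gene NPNT, which overlaps INTS12, fell by 2.74 ± 0.43, and the neuronal sodium channel gene SCN2A by 2.50 ± 0.43.

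Some of the other large falls rest on less. ZNF320, a zinc finger gene, had 1.82, 0.664 and 1.47 CPM at 125 µM and 5.55, 8.55 and 2.83 CPM at 2.5 µM (log2 fold change -2.40 ± 0.57, adjusted p = 0.0118). Its call was lost when 1 library was left out (adjusted p = 0.0714 to 0.1 without replicate 2 at 125 µM or replicate 2 at 2.5 µM). DSCAML1, a cell adhesion gene that overlaps FXYD2 and has 55.3% of its reads in introns, fell by 2.20 ± 0.45 (adjusted p = 0.0529 without replicate 2 at 125 µM). MYLK4, a myosin light chain kinase family member with 17 reads at 125 µM, fell by 2.20 ± 0.60 (adjusted p = 0.0243; adjusted p = 0.053 to 0.0986 without replicate 1, 2 or 3 at 125 µM or replicate 1 or 2 at 2.5 µM). Among unnamed transcripts, RP11-511B23.1 fell by 3.24 ± 0.49 and AC007364.1, of whose reads 95.04% were intronic, by 2.24 ± 0.36; both overlap another tested feature.

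Among the smallest adjusted p-values, rises and falls of moderately expressed genes stood out. CYP24A1, the enzyme that inactivates vitamin D hormone, lies at chr20:52769988-52790512 on hg19 and had 109.8, 124 and 93.6 CPM at 125 µM and 19.6, 22.03 and 37.6 CPM at 2.5 µM (log2 fold change 2.19 ± 0.17, adjusted p = 1.4e-05), against 11.8 ± 1.80 CPM in the controls. ASB2, a substrate adaptor of a ubiquitin ligase at chr14:94400499-94443137, had 26.7, 34.2 and 33.8 CPM at 125 µM and 7.46, 9.67 and 9.70 CPM at 2.5 µM (log2 fold change 1.84 ± 0.16, adjusted p = 2.14e-05). Both were also above the controls at 2.5 µM, with log2 fold changes of 1.05 (adjusted p = 0.00983) and 1.54 (adjusted p = 0.00488) over control, a comparison in which 11% of all genes were called. SGK1, a kinase that steroid hormones and cell shrinkage induce, fell from 50.2, 55.2 and 43.6 CPM to 19.5, 18.2 and 11.01 CPM (log2 fold change -1.55 ± 0.14, adjusted p = 2.14e-05). Its controls were at 54.5 ± 3.22 CPM. CADM1, an adhesion molecule at chr11:115039938-115375675, had 98.4, 98.8 and 98.4 CPM against 209, 225 and 214 CPM (log2 fold change -1.13 ± 0.09, adjusted p = 1.4e-05). SERPINA7, thyroxine-binding globulin of plasma, had 184, 171 and 181 CPM against 385, 398 and 333 CPM (log2 fold change -1.06 ± 0.10, adjusted p = 2.14e-05). TAF9B, a subunit of the general transcription machinery, fell by 1.04 ± 0.11. DKK1, a secreted inhibitor of Wnt signalling, fell 2.00-fold (adjusted p = 5.65e-05), from 48.4, 56.2 and 53.3 to 26.3, 26.4 and 26.1 CPM. DKK1 was higher at 2.5 µM than in the controls (34.5, 33.04 and 41.3 CPM) and lower than them at 125 µM.

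**Figure D2:**
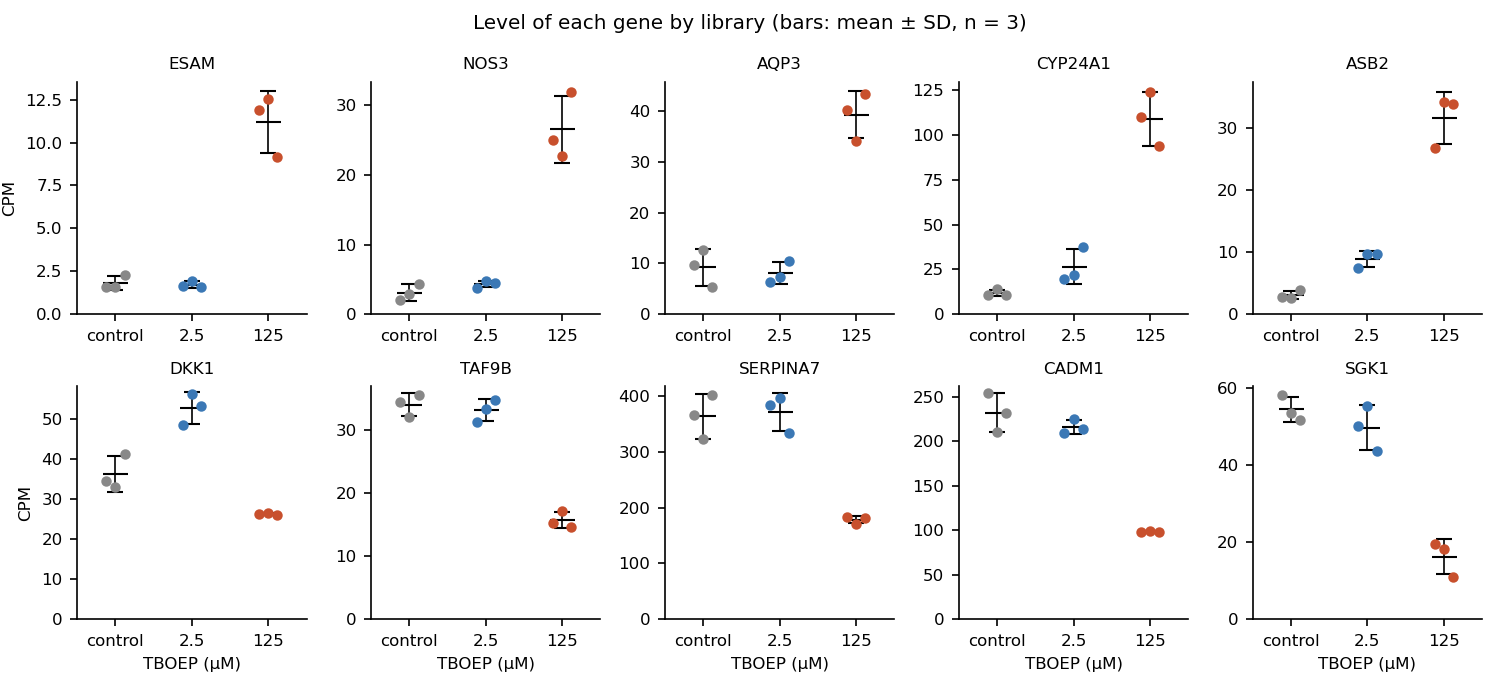
CPM of the 5 rises and 5 falls with the smallest adjusted p between 125 and 2.5 µM, for the control, 2.5 µM and 125 µM; points are libraries and bars mean ± SD (n = 3). ESAM, NOS3 and AQP3 are near the control level at 2.5 µM and higher at 125 µM, whereas CYP24A1 and ASB2 are raised at 2.5 µM and further at 125 µM.

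Genes of 50 lists of liver functions, stress pathways and cell markers, 1134 of them tested, were then read together. Each list is given by its count of rises and falls, beside the 7.48% of all tested genes that rose and the 7.44% that fell. The lists are descriptions: no test was made of a list as a whole. A count that moved by over 1.5 times without a single library is given with its values. Counts of 0 or 1 moved by at most 1, except in the ribosomal, one-carbon and oxidative phosphorylation lists. On RPKM values with limma, where fewer genes were called in all, 32 of the 51 counts of 3 or more moved by over 1.5 times, among them the rises of the mitochondrial genome (11 to 3) and of ATF4 targets (10 to 4). The falls of mitotic genes went from 17 to 5, those of secreted liver proteins from 13 to 4, of glycolysis genes from 15 to 7 and of coagulation genes from 9 to 5. With DESeq2 6 counts moved that far, with exonic reads or without the filter 3, with robust dispersion or a replicate block 2 and with the 6 exposed libraries alone 1. Against a 1.5-fold minimum change 50 of the 51 moved, on unfiltered RPKM 38, on RPKM + 0.1 35 and on quantile values 32.

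**Figure D3:**
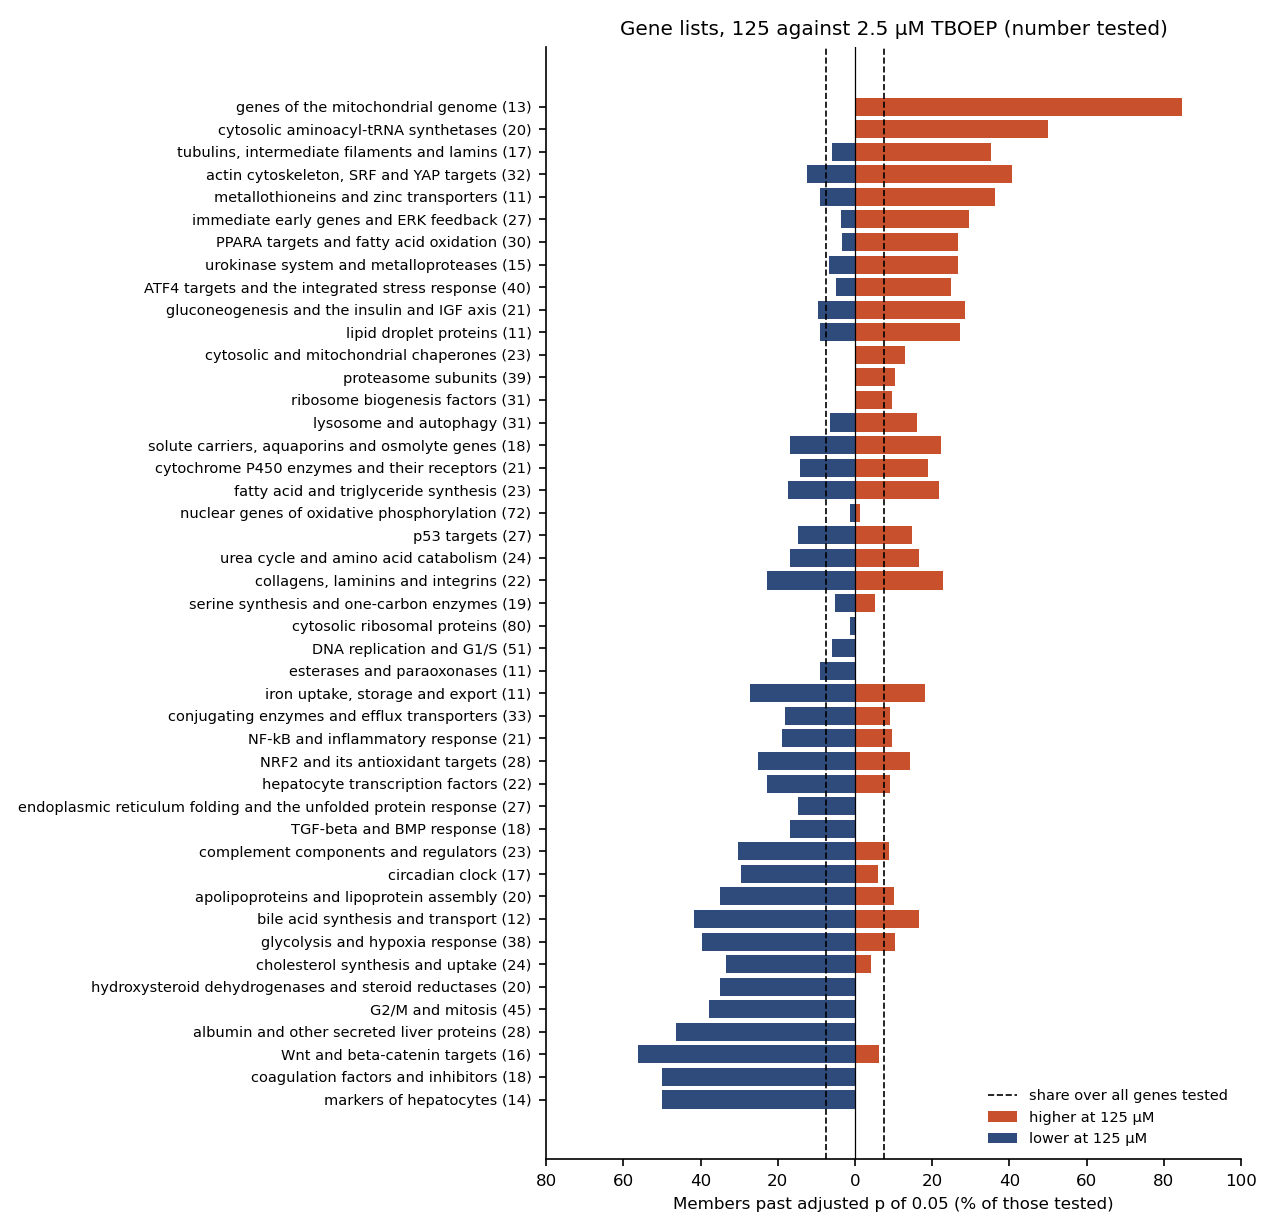
Share of the tested members of 45 gene lists (those with at least 10 tested) that rose (orange, to the right) or fell (blue, to the left) at 125 µM against 2.5 µM; the number tested is in brackets and the dashed lines give the shares over all genes, 7.48 and 7.44%. Genes of the mitochondrial genome and tRNA synthetases are at the top, with 11 of 13 and 10 of 20 higher, and coagulation factors and hepatocyte markers are at the bottom, with 9 of 18 and 7 of 14 lower.

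Many genes of secreted liver proteins were lower at the higher concentration. Of 28 tested genes for albumin and other plasma proteins, 13 fell and none rose, and the median log2 fold change was -0.32. ALB, albumin, had 13696, 12068 and 17406 CPM at 125 µM and 29468, 27638 and 21508 CPM at 2.5 µM (log2 fold change -0.87 ± 0.17, adjusted p = 0.00332); the controls, at 35789.6 ± 7117 CPM, were higher still. AFP, the fetal counterpart of albumin, had 829, 718 and 870.3 CPM at 125 µM and 1610.4, 1579.5 and 1121 CPM at 2.5 µM (log2 fold change -0.84 ± 0.14, adjusted p = 0.00133). The 3 fibrinogen chains fell, FGB by 1.30 ± 0.15, FGA by 0.89 ± 0.16 and FGG by 0.65, from 189, 171 and 134 CPM to 77.7, 56.3 and 70.8 CPM for FGB. VTN, vitronectin, which overlaps TMEM199, fell by 0.58 ± 0.10. TF, the iron carrier transferrin, fell by 0.47 ± 0.12 (adjusted p = 0.0563 to 0.0585 without replicate 1, 2 or 3 at 125 µM). TTR, transthyretin, fell by 0.29 ± 0.09 (adjusted p = 0.0515 to 0.157 without replicate 1 or 3 at 125 µM or replicate 1, 2 or 3 at 2.5 µM or replicate 3 of the control). SERPINA1, the gene of alpha-1 antitrypsin, did not pass the threshold (log2 fold change -0.14 ± 0.12, 95% interval -0.39 to 0.12). Falls numbered 7 without replicate 1 or 3 at 125 µM.

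Coagulation and complement genes also gave more falls than rises. Of 18 coagulation factors and inhibitors 9 fell and none rose, with a median of -0.44. CPB2, which stabilises clots by trimming fibrin and overlaps an antisense gene, had 37.3, 39.3 and 37.4 CPM at 125 µM and 90.6, 98.99 and 69.9 CPM at 2.5 µM (log2 fold change -1.21 ± 0.13, adjusted p = 6.18e-05). PROS1, the anticoagulant protein S, fell by 0.59 ± 0.09, SERPIND1, heparin cofactor II, which overlaps PI4KA, by 0.47 ± 0.08, and F11 by 0.85 ± 0.15; F11 overlaps an antisense gene. F13B, a subunit of the clot-stabilising factor XIII, had 0.607, 0.415 and 0.734 CPM at 125 µM and 3.35, 1.86 and 2.02 CPM at 2.5 µM (log2 fold change -2.22 ± 0.45, adjusted p = 0.00464; adjusted p = 0.0552 without replicate 2 at 125 µM). F5 did not pass (-0.25 ± 0.10, adjusted p = 0.0911). Of 23 complement genes, 7 fell and 2 rose (C5AR1 and CD55), with a median of -0.21. The rises came to 0 without replicate 2 at 125 µM and 1 without replicate 1 at 125 µM or replicate 1 at 2.5 µM. C8B, a chain of the membrane attack complex, had 6.80, 7.22 and 6.24 CPM at 125 µM and 27.6, 23.5 and 14.9 CPM at 2.5 µM (log2 fold change -1.75 ± 0.20, adjusted p = 9.66e-05). Its partner C8A fell by 1.06 ± 0.16. CFI, an inhibitor of complement, and CLU, clusterin, fell by 0.88 ± 0.09 and 0.83 ± 0.11. C3, the central component, fell by 0.33 ± 0.10 (adjusted p = 0.0474), a call that did not hold without single libraries (adjusted p = 0.0698 to 0.148 without replicate 1, 2 or 3 at 125 µM or replicate 1 or 2 at 2.5 µM or replicate 3 of the control); C3 overlaps GPR108.

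**Figure D4:**
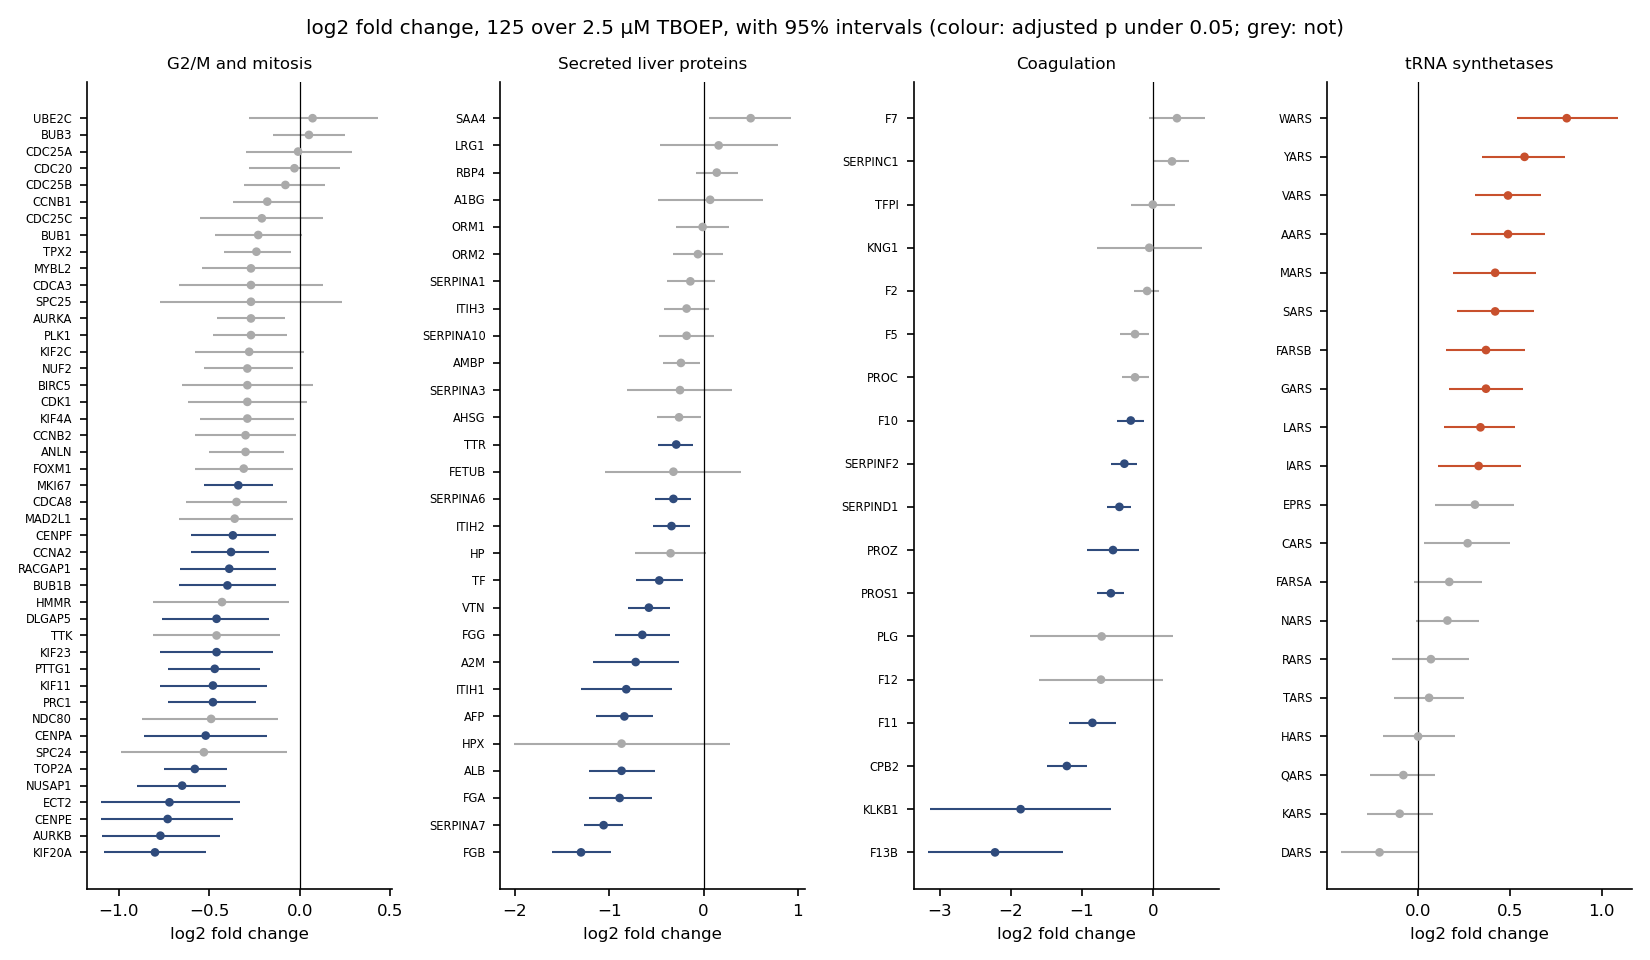
log2 fold change of each tested member, 125 over 2.5 µM, with its 95% interval, for mitotic genes, secreted liver proteins, coagulation genes and cytosolic tRNA synthetases; orange and blue mark an adjusted p under 0.05, grey does not. Among mitotic genes 43 of 45 lie left of 0 and 17 passed the threshold; among coagulation genes 15 of 18 do and 9 passed.

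Most hepatocyte transcription factors did not pass the threshold. HNF4A, a master regulator of hepatocyte genes, had a log2 fold change of -0.02 ± 0.09 (95% interval -0.21 to 0.17), and FOXA2 of -0.00 ± 0.09 (-0.19 to 0.18). Of 22 tested factors, 5 fell and 2 rose. ONECUT1 had 8.74, 8.13 and 4.77 CPM at 125 µM and 19.7, 13.01 and 12.9 CPM at 2.5 µM (log2 fold change -1.01 ± 0.22, adjusted p = 0.00627). FOXA1, which overlaps TTC6, fell by 0.39 ± 0.09 (adjusted p = 0.0543 to 0.0694 without replicate 1 or 2 at 125 µM). NR1H3, an oxysterol receptor that overlaps ACP2, rose by 0.60 ± 0.14 (adjusted p = 0.0585 to 0.0616 without replicate 2 at 125 µM or replicate 2 at 2.5 µM). The number of falls came to 1 without replicate 2 at 125 µM, 2 without replicate 1 at 125 µM or replicate 1 or 2 at 2.5 µM and 3 without replicate 3 at 125 µM or replicate 3 of the control. That of rises came to 0 without replicate 2 at 125 µM or replicate 2 at 2.5 µM and 1 without replicate 1 or 3 at 125 µM or replicate 1 at 2.5 µM or replicate 3 of the control. In amino acid metabolism 4 of 24 genes rose and 4 fell. HGD, an enzyme of tyrosine breakdown, fell by 0.59 ± 0.10, whereas HPD, which acts in the same pathway, rose by 0.65 ± 0.10, from 230.5, 237 and 268 to 364, 407 and 376 CPM. NAGS, which makes the activator of the urea cycle, rose by 1.06 ± 0.21. CPS1, the first enzyme of that cycle, and ASS1 did not pass (-0.10 ± 0.16 and -0.08 ± 0.11).

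Lipid lists differed in their balance of rises and falls. Of 30 PPARA targets and fatty acid oxidation genes, 8 rose and 1 fell, with a median of 0.21. PLIN2, which coats lipid droplets, had 1362, 1381 and 1392 CPM at 125 µM and 772, 851 and 921 CPM at 2.5 µM (log2 fold change 0.70 ± 0.09, adjusted p = 0.000171). CPT1A, the gate of mitochondrial fatty acid entry, had 97.3, 123 and 95.1 CPM at 125 µM and 68.8, 49.6 and 75.5 CPM at 2.5 µM (log2 fold change 0.75 ± 0.14, adjusted p = 0.00295). VNN1, a pantetheinase, rose by 1.81 ± 0.26, PPARGC1A, a coactivator of mitochondrial genes, by 0.50 ± 0.08, and ACADVL, an oxidation enzyme whose gene overlaps DLG4, by 0.43 ± 0.08. ANGPTL4, an inhibitor of lipoprotein lipase that overlaps an antisense gene, rose by 0.55 ± 0.15, but not without some libraries (adjusted p = 0.11 to 0.231 without replicate 2 at 125 µM or replicate 2 at 2.5 µM). Rises numbered 5 without replicate 2 at 125 µM or replicate 2 at 2.5 µM. FABP1, a fatty acid carrier, did not pass (-0.04 ± 0.12, 95% interval -0.31 to 0.22).

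Of 11 lipid droplet genes, 3 rose and 1 fell, and PLIN2, counted above, is among the rises. CIDEC, which helps droplets fuse, had 8.01, 10.8 and 9.18 CPM at 125 µM and 1.82, 2.79 and 2.42 CPM at 2.5 µM (log2 fold change 2.01 ± 0.26, adjusted p = 0.00023). PLIN4, which overlaps HDGFRP2, rose by 0.82 ± 0.21 (adjusted p = 0.0975 to 0.169 without replicate 2 at 125 µM or replicate 2 at 2.5 µM). PNPLA2, the triglyceride lipase, fell by 0.46 ± 0.10 (adjusted p = 0.0534 without replicate 2 at 125 µM). In fatty acid and triglyceride synthesis, 5 of 23 genes rose and 4 fell. AGPAT2, an enzyme of triglyceride assembly, had 38.2, 55.6 and 37.8 CPM at 125 µM and 12.5, 10.9 and 17.4 CPM at 2.5 µM (log2 fold change 1.82 ± 0.18, adjusted p = 3.68e-05). The acyl-CoA synthetases ACSL3 and ACSL5 rose by 0.61 ± 0.09 and 0.70 ± 0.11. FADS2, a desaturase that overlaps FADS1 and FEN1, fell by 0.65 ± 0.13, and MLXIPL, a carbohydrate-responsive factor, by 0.86 ± 0.20, with -0.47 as its smallest size when 1 library was left out. FASN, SCD and SREBF1 did not pass (0.18 ± 0.10, -0.19 ± 0.09 and -0.02 ± 0.10). The count of rises was 3 without replicate 1 or 3 at 125 µM or replicate 2 at 2.5 µM, and that of falls 2 without replicate 2 at 125 µM or replicate 1 at 2.5 µM.

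Among cholesterol genes falls outnumbered rises. Of 24 tested, 8 fell and 1 rose, with a median of -0.20. HSD17B7, a late enzyme of synthesis, had 8.37, 7.97 and 6.24 CPM at 125 µM and 13.6, 11.7 and 13.7 CPM at 2.5 µM (log2 fold change -0.72 ± 0.16, adjusted p = 0.00738). SQLE, which oxidises squalene, fell by 0.35 ± 0.08 (adjusted p = 0.0858 without replicate 2 at 125 µM). HMGCS1, an early enzyme, did not pass (-0.20 ± 0.12). The count of falls was 4 without replicate 2 at 125 µM and 5 without replicate 1 at 2.5 µM. INSIG1, a brake on this pathway that liver cells are known to express, had at most 2 reads in any library and was not tested; how the authors counted may bear on this, which was not tested.

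Of 20 apolipoprotein and lipoprotein assembly genes, 7 fell and 2 rose. MTTP, which loads lipid onto nascent lipoproteins and overlaps TRMT10A, had 58.4, 63.99 and 56.5 CPM at 125 µM and 131, 106 and 116 CPM at 2.5 µM (log2 fold change -0.97 ± 0.11, adjusted p = 6.18e-05). APOH, APOA5 and LCAT, the last an enzyme of HDL that overlaps SLC12A4, fell by 0.87 ± 0.09, 0.80 ± 0.11 and 0.98 ± 0.13. APOA1 and APOB, the main proteins of HDL and LDL, fell by 0.39 ± 0.10 and 0.38 ± 0.10, calls that single libraries decided (adjusted p = 0.0616 to 0.0959 without replicate 1 at 125 µM or replicate 2 at 2.5 µM for APOA1; adjusted p = 0.0529 to 0.0993 without replicate 1, 2 or 3 at 125 µM or replicate 2 at 2.5 µM for APOB). PLTP, a phospholipid transfer protein that overlaps CTSA, rose by 0.68 ± 0.17 (adjusted p = 0.0998 to 0.115 without replicate 2 at 125 µM or replicate 2 at 2.5 µM). Falls numbered 4 without replicate 2 at 2.5 µM. Rises numbered 0 without replicate 2 at 125 µM and 1 without replicate 1 at 125 µM or replicate 2 at 2.5 µM. Among 12 bile acid genes 5 fell and 2 rose, with a median of -0.45. The pair that rose forms 1 transporter, the exporter of bile acids and steroids: SLC51A, which overlaps PCYT1A, had 23.2, 32.4 and 16.1 CPM at 125 µM and 7.94, 5.76 and 9.29 CPM at 2.5 µM (log2 fold change 1.79 ± 0.26, adjusted p = 0.000439) and SLC51B had 13.3, 12.9 and 17.6 CPM at 125 µM and 3.44, 5.67 and 6.46 CPM at 2.5 µM (log2 fold change 1.54 ± 0.21, adjusted p = 0.000358). KLB, a coreceptor of FGF hormones, fell by 1.37 ± 0.24. CYP7A1, the rate-limiting enzyme of bile acid synthesis, had 0.243, 0.249 and 0.367 CPM at 125 µM and 1.91, 0.558 and 1.62 CPM at 2.5 µM (log2 fold change -2.22 ± 0.61, adjusted p = 0.0257; adjusted p = 0.05 to 0.182 without replicate 1, 2 or 3 at 125 µM or replicate 1 at 2.5 µM). NR1H4, the bile acid receptor, with 61.4% of its reads in introns, fell by 0.80 ± 0.20 (adjusted p = 0.0569 to 0.0866 without replicate 2 at 125 µM or replicate 1 or 2 at 2.5 µM). ABCB4, a phospholipid exporter of the bile canaliculus, fell by 0.57 ± 0.12 (adjusted p = 0.0536 without replicate 2 at 125 µM). The number of falls came to 2 without replicate 2 at 125 µM or replicate 1 at 2.5 µM and 3 without replicate 1 or 3 at 125 µM or replicate 2 at 2.5 µM.

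Xenobiotic genes did not move as a block. Of 21 cytochrome P450 genes and their receptors, 4 rose and 3 fell. Besides CYP24A1, CYP2S1 rose, with 51.9, 59.2 and 45.1 CPM at 125 µM and 14.1, 13.1 and 21.01 CPM at 2.5 µM (log2 fold change 1.82 ± 0.20, adjusted p = 6.31e-05). The pregnane X receptor, NR1I2, had 29.5, 28.6 and 24.96 CPM at 125 µM and 14.3, 13.9 and 18.2 CPM at 2.5 µM (log2 fold change 0.91 ± 0.16, adjusted p = 0.0018). POR, the electron donor of these enzymes, rose by 0.44 ± 0.09; it overlaps TMEM120A. CYP3A4, the enzyme that NR1I2 is best known to induce, had 0.485, 0.913 and 0.734 CPM against 1.43, 0.837 and 0.808 CPM and a 95% interval of -1.68 to 0.56, so that neither a rise nor a fall could be told at this depth. CYP3A5 and CYP3A7 did not pass (-0.46 to 0.64 and -0.48 to 1.18). CYP1A1, the classical target of the aryl hydrocarbon receptor, had 6.19, 8.30 and 6.61 CPM against 9.09, 12.2 and 3.64 CPM (interval -1.19 to 0.42), and the receptor itself, AHR, fell by 0.41 ± 0.10 (adjusted p = 0.0679 to 0.077 without replicate 2 at 125 µM or replicate 2 at 2.5 µM). The falls in this list came to 0 without replicate 2 at 125 µM and 1 without replicate 1 at 125 µM or replicate 2 at 2.5 µM.

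Of 33 conjugating enzymes and exporters, 6 fell and 3 rose. GSTA1, a glutathione transferase, had 5.46, 4.65 and 4.04 CPM at 125 µM and 18.3, 11.6 and 12.9 CPM at 2.5 µM (log2 fold change -1.58 ± 0.21, adjusted p = 0.000262). The glucuronosyltransferases UGT2B10 and UGT2B4 fell by 0.87 ± 0.12 and 1.29 ± 0.24; their family is closely related in sequence. SULT1E1, the oestrogen sulfotransferase, fell by 2.20 ± 0.37, with 79.1% of its reads in introns. ABCC3, an exporter of conjugates, had 181, 151 and 156 CPM at 125 µM and 109.5, 89.8 and 96.1 CPM at 2.5 µM (log2 fold change 0.72 ± 0.13, adjusted p = 0.00187), whereas ABCB1 and ABCC2 did not pass (95% intervals -0.26 to 0.18 and 0.01 to 0.44). Rises numbered 1 without replicate 2 at 125 µM or replicate 2 at 2.5 µM. Esterases, which can hydrolyse organophosphates, gave 1 fall in 11, PNPLA7, by 0.56 ± 0.17 (adjusted p = 0.0505 to 0.202 without replicate 1 or 3 at 125 µM or replicate 1 at 2.5 µM or replicate 3 of the control). CES1, the main liver carboxylesterase, had 578, 534 and 549.9 CPM against 748, 659 and 594 CPM (adjusted p = 0.0596), and PON1, PON2 and PON3 did not pass. Of 20 hydroxysteroid dehydrogenases and reductases 7 fell and none rose. Among the falls were the closely related AKR1C2, AKR1C3 and AKR1C1. AKR1C2 had 373, 229.5 and 414 CPM at 125 µM and 657, 1058 and 566 CPM at 2.5 µM (log2 fold change -1.18 ± 0.22, adjusted p = 0.00295). AKR1C3 fell by 0.54 ± 0.11 and AKR1C1 by 0.87 ± 0.21 (adjusted p = 0.0671 to 0.0764 for AKR1C1 without replicate 2 at 125 µM or replicate 2 at 2.5 µM). The count of falls was 4 without replicate 1 at 125 µM or replicate 1 or 2 at 2.5 µM.

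Oxidative stress genes were divided. Of 28 genes of the NRF2 list, 7 fell and 4 rose. The falls include the closely related AKR1C1, AKR1C2 and AKR1C3, which were also counted with the steroid enzymes above. Among the rises were both ferritin chains, FTL by 0.57 ± 0.09 and FTH1 by 0.36 ± 0.08 (adjusted p = 0.0662 without replicate 1 at 125 µM), and SLC7A11, the cystine importer, by 0.72 ± 0.15. KEAP1, the inhibitor of NRF2, fell by 0.57 ± 0.12. NQO1, HMOX1, GCLM, SRXN1 and TXNRD1, which are standard readouts of NRF2, did not pass, with 95% intervals of -0.31 to 0.12, -0.02 to 0.64, -0.09 to 0.58, -0.05 to 0.91 and -0.21 to 0.39. Falls numbered 3 without replicate 2 at 125 µM or replicate 2 at 2.5 µM and 4 without replicate 1 at 125 µM. Of 11 metallothioneins, which bind zinc and copper, and zinc transporters 4 rose and 1 fell. MT2A had 145, 218 and 135 CPM at 125 µM and 51.8, 51.03 and 72.3 CPM at 2.5 µM (log2 fold change 1.57 ± 0.18, adjusted p = 7.37e-05), MT1E rose by 1.07 ± 0.20 and MT1X by 1.21 ± 0.25 (adjusted p = 0.0621 without replicate 2 at 125 µM). These genes are near-copies of each other, so reads may be shared among them. SLC39A4, a zinc importer, rose by 0.69 ± 0.10, and SLC39A14, another, fell by 0.62 ± 0.18 (adjusted p = 0.0791 to 0.14 without replicate 1 or 2 at 125 µM or replicate 2 at 2.5 µM). The zinc exporter SLC30A1, an induced target of the same metal sensor, did not pass (95% interval -0.37 to 0.38).

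The amino acid stress programme was higher at 125 µM in part. Of 40 ATF4 targets and integrated stress response genes, 10 rose and 2 fell, with a median of 0.28. SESN2, an inhibitor of growth signalling, had 44.9, 40.5 and 49.9 CPM at 125 µM and 20.6, 22.4 and 25.9 CPM at 2.5 µM (log2 fold change 0.99 ± 0.12, adjusted p = 0.000171). TRIB3, a pseudokinase, had 248, 278 and 283 CPM at 125 µM and 118, 130.4 and 194 CPM at 2.5 µM (log2 fold change 0.90 ± 0.14, adjusted p = 0.000806). DDIT4, another inhibitor of growth signalling, rose by 0.55 ± 0.10, and PCK2, a mitochondrial enzyme whose gene overlaps NRL, by 0.52 ± 0.11. ASNS, asparagine synthetase, had 134, 149.9 and 149 CPM at 125 µM and 69.6, 95.7 and 116 CPM at 2.5 µM (log2 fold change 0.65 ± 0.14, adjusted p = 0.00661). SLC38A2, a glutamine transporter that overlaps RP11-474P2.2, fell, with 1483, 1526 and 1709.8 CPM at 125 µM and 2166, 2659 and 2317 CPM at 2.5 µM (log2 fold change -0.60 ± 0.10, adjusted p = 0.00107). ATF4 itself did not pass (479, 459.9 and 463 CPM against 411, 530.4 and 466 CPM; 95% interval -0.22 to 0.20), nor did DDIT3 pass (0.36 ± 0.16, adjusted p = 0.133). Rises numbered 6 without replicate 1 or 3 at 125 µM or replicate 1 at 2.5 µM and 20 without replicate 3 at 2.5 µM. Falls numbered 1 without replicate 1, 2 or 3 at 125 µM or replicate 1 or 2 at 2.5 µM. For many of these genes 2.5 µM already exceeded the controls: the list's median was 0.33 for 2.5 µM over control and 0.63 for 125 µM over control.

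ATF4 acts through an amino acid response element, searched here on both strands as TGATGNAA in RefSeq promoters from 250 bases before to 50 after the start (GRCh38.p14). It was found in 4 of the 31 list members with a promoter in the table (12.9%), against 3.67% of 27305 promoters and 1.69% of the 8961 promoters of tested genes. Among the 8 risen members with a promoter it was in 1, ASNS, and in none of the 2 that fell. The 250 bases before the ASNS start are shown because this is the risen gene that holds the element, in capitals, 68 bases before the start (chr7:97872409-97872658, minus strand).

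ASNS: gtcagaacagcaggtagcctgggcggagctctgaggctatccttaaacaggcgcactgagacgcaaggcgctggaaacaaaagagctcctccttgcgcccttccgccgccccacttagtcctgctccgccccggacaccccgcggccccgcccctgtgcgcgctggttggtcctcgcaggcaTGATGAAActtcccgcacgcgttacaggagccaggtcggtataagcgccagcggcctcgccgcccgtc

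The matches in the 3 members that did not pass the test are shown for comparison, with up to 11 bases on each side: ATF3 (191 bases before the start, log2 fold change -0.33), SLC3A2 (37 after, 0.30) and SLC7A1 (7 after, 0.39). The SLC3A2 match lies on the opposite strand of the one printed.

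ATF3: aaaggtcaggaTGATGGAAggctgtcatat
SLC3A2: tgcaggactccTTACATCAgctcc
SLC7A1: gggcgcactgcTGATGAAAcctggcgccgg

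A match of these letters is no proof of binding. The same search gave the TEAD element (GGAATG) in 7 of 27 actin and YAP list promoters (25.9%, against 14% of all promoters and 10.9% of those of tested genes), but in 1 of the 10 risen members with a promoter, VCL, and in none of the 4 that fell. The antioxidant element (TGACNNNGC) was in 6 of 22 NRF2 promoters (27.3%, against 13.6% of all and 15.3% of tested), in none of 2 risen members and in 1 of 6 that fell. The sterol element (TCACNCCAC) was in 1 of 17 cholesterol promoters (5.88%, against 1.15% of all), a member that did not pass the test. The PPAR repeat DR1 was in 0 of 22 (0.022% of all).

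Among enzymes that charge tRNA there were rises and no fall. Of 20 cytosolic aminoacyl-tRNA synthetases 10 rose and none fell, with a median of 0.32, and 17 of the 20 lay above 0. WARS, which charges tryptophan and overlaps WDR25, had 62.1, 52.3 and 56.5 CPM at 125 µM and 27.1, 32.1 and 42.4 CPM at 2.5 µM (log2 fold change 0.81 ± 0.13, adjusted p = 0.00101). VARS, YARS and AARS, for valine, tyrosine and alanine, rose by 0.49 ± 0.08, 0.58 ± 0.11 and 0.49 ± 0.09; YARS overlaps S100PBP. SARS rose by 0.42 ± 0.10 (adjusted p = 0.0621 without replicate 2 at 125 µM). The count of rises was 5 without replicate 1 or 2 at 125 µM and 6 without replicate 1 at 2.5 µM. In the 19 serine and one-carbon genes, by contrast, 1 rose and 1 fell: MTHFD1L by 0.39 ± 0.09 (adjusted p = 0.0557 without replicate 1 at 125 µM) and GLDC by 0.37 ± 0.12 (adjusted p = 0.0628 to 0.137 without replicate 1, 2 or 3 at 125 µM or replicate 1, 2 or 3 at 2.5 µM or replicate 3 of the control). Without replicate 3 at 2.5 µM, 4 of them rose.

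Of 27 protein folding genes of the endoplasmic reticulum, 4 fell and none rose: HSP90B1, a chaperone that overlaps C12orf73, by 0.43 ± 0.08, and the disulfide isomerases PDIA6 by 0.34 ± 0.08 (adjusted p = 0.0546 without replicate 2 at 125 µM), PDIA4 by 0.31 ± 0.08 (adjusted p = 0.0504 to 0.0884 without replicate 1 or 2 at 125 µM) and P4HB by 0.33 ± 0.08 (adjusted p = 0.0613 to 0.0877 without replicate 2 or 3 at 125 µM or replicate 2 at 2.5 µM). HSPA5, the sensor chaperone of this compartment, had 1384, 1239 and 1371 CPM against 1376, 1513 and 1647 CPM (95% interval -0.37 to 0.01), and XBP1, HERPUD1 and DNAJB9 did not pass. The count of falls was 1 without replicate 2 at 125 µM. Among 23 cytosolic and mitochondrial chaperones, 3 rose, HSPA9, HSPB1 and HSPA1B, and 0 without replicate 1, 2 or 3 at 125 µM or replicate 2 at 2.5 µM or replicate 3 of the control and 1 without replicate 3 at 2.5 µM. In 31 lysosome and autophagy genes 5 rose and 2 fell: SQSTM1, the autophagy receptor, had 384, 352 and 428 CPM at 125 µM and 218, 225 and 216 CPM at 2.5 µM (log2 fold change 0.81 ± 0.09, adjusted p = 8.36e-05), MAP1LC3B, which marks autophagosomes, rose by 0.56 ± 0.10, and CTSB, a lysosomal protease, by 0.39 ± 0.08. SQSTM1 overlaps MGAT4B and C5orf45, and MAP1LC3B overlaps FBXO31. The rises came to 3 without replicate 2 at 125 µM, and the falls to 0 without replicate 2 or 3 at 125 µM or replicate 2 at 2.5 µM or replicate 3 of the control and 1 without replicate 1 at 125 µM or replicate 1 or 3 at 2.5 µM. The 39 proteasome genes gave 4 rises and no fall. The highest rise was PSMD9 at 0.48 (adjusted p = 0.0562 to 0.149 without replicate 1, 2 or 3 at 125 µM or replicate 1, 2 or 3 at 2.5 µM). Proteasome rises numbered 0 without replicate 1 at 125 µM and 1 without replicate 3 at 125 µM or replicate 1 at 2.5 µM. They numbered 2 without replicate 2 at 125 µM or replicate 2 or 3 at 2.5 µM.

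Many genes of cell division were lower. Of 45 G2/M and mitosis genes 17 fell and none rose, with a median of -0.34, and the libraries did not overlap, with 125 µM lower, for 34 of the 45 (15.9% of all tested genes). TOP2A, which untangles chromosomes, had 226, 222 and 229.8 CPM at 125 µM and 335, 364 and 307 CPM at 2.5 µM (log2 fold change -0.58 ± 0.08, adjusted p = 0.000456). NUSAP1, a spindle protein, had 33.01, 34.4 and 25.7 CPM at 125 µM and 54.99, 50.2 and 42.4 CPM at 2.5 µM (log2 fold change -0.65 ± 0.12, adjusted p = 0.00188). KIF20A, a motor of cytokinesis that overlaps BRD8 and CDC23, fell by 0.80 ± 0.13, and AURKB, a mitotic kinase, by 0.77 ± 0.15 (adjusted p = 0.05 without replicate 2 at 125 µM). CENPE, a kinetochore motor, fell by 0.73 ± 0.17 (adjusted p = 0.065 to 0.0943 without replicate 2 at 125 µM or replicate 2 at 2.5 µM). MKI67, the proliferation marker, fell by 0.34 ± 0.09 (adjusted p = 0.0647 to 0.104 without replicate 2 or 3 at 125 µM or replicate 2 at 2.5 µM), from 124, 149.5 and 143 to 115, 104 and 108 CPM, and CCNB1 did not pass (-0.18 ± 0.09). The number of falls came to 3 without replicate 2 at 125 µM, 8 without replicate 2 at 2.5 µM, 9 without replicate 1 or 3 at 125 µM and 10 without replicate 1 at 2.5 µM. Over control, the median of the list was -0.10 at 125 µM and 0.22 at 2.5 µM. Among DNA replication genes there were few calls: 3 of 51 fell and none rose, MCM3 by 0.53 ± 0.10, RFC1 by 0.67 ± 0.15 and MCM2, which overlaps TPRA1, by 0.47 ± 0.14 (adjusted p = 0.0635 to 0.109 without replicate 1, 2 or 3 at 125 µM or replicate 1 or 3 at 2.5 µM). E2F1 and CCNE2 did not pass (95% intervals -0.28 to 0.23 and -0.93 to 0.38).

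Among 27 p53 targets 4 rose and 4 fell, and CDKN1A, the cell cycle inhibitor that is their standard readout, did not pass (0.23 ± 0.11, 95% interval -0.01 to 0.46). The fall of smallest p was PPM1D, a phosphatase that opposes p53, by 0.75 ± 0.13, and MDM2, which overlaps CPM, rose by 0.31 ± 0.09 (adjusted p = 0.0622 to 0.125 without replicate 1, 2 or 3 at 125 µM or replicate 2 or 3 at 2.5 µM). The rises came to 1 without replicate 1, 2 or 3 at 125 µM or replicate 2 at 2.5 µM, and the falls to 1 without replicate 2 at 125 µM or replicate 2 at 2.5 µM and 2 without replicate 1 at 125 µM.

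The cytoskeleton lists gave more rises than falls. Of 32 actin, SRF and YAP target genes, 13 rose and 4 fell, with a median of 0.22. The cytoplasmic actins ACTB and ACTG1 had 1980.2, 2174 and 2041 CPM against 1320.3, 1150.2 and 1530.2 CPM and 4485, 4897 and 4428 CPM against 2900.1, 2757 and 3490.2 CPM (125 against 2.5 µM; log2 fold changes 0.63 ± 0.11 and 0.60 ± 0.10). AXL, a receptor kinase, had 31.3, 47.97 and 32.7 CPM at 125 µM and 10.2, 8.18 and 24.6 CPM at 2.5 µM (log2 fold change 1.67 ± 0.29, adjusted p = 0.00164). TAGLN, an actin-binding protein whose gene overlaps PCSK7, had 10.8, 8.88 and 10.6 CPM at 125 µM and 3.06, 4.09 and 6.46 CPM at 2.5 µM (log2 fold change 1.31 ± 0.23, adjusted p = 0.00187). AJUBA, an adaptor that overlaps RP11-298I3.5, fell by 0.87 ± 0.10. CTGF and CYR61, the standard YAP readouts, did not pass (95% intervals -0.78 to 0.08 and -0.44 to 0.37). The falls came to 2 without replicate 1 or 2 at 125 µM or replicate 2 at 2.5 µM. Of 17 tubulins, intermediate filaments and lamins, 6 rose and 1 fell: TUBB6, which overlaps AFG3L2, by 0.88 ± 0.13, NES, nestin, by 0.75 ± 0.14, TUBA1C by 0.53 ± 0.11 and TUBB by 0.49 ± 0.10. KRT19, a keratin of bile ducts and progenitors, rose by 0.75 ± 0.17 (adjusted p = 0.0524 without replicate 2 at 125 µM). KRT80 fell by 1.42 ± 0.30. Tubulin genes resemble each other, so the split between them is uncertain.

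Integrin subunits and matrix genes went apart. Of 22, 5 rose and 5 fell; all 5 rises were integrins and all 5 falls were collagens, laminins or fibronectin. ITGA3, a laminin receptor, had 3.03, 2.90 and 1.83 CPM at 125 µM and 0.956, 0.558 and 0.808 CPM at 2.5 µM (log2 fold change 1.84 ± 0.36, adjusted p = 0.0036). ITGA2, a collagen receptor that overlaps CTD-2175A23.1, had 645, 684 and 714 CPM at 125 µM and 259, 362 and 354 CPM at 2.5 µM (log2 fold change 1.07 ± 0.11, adjusted p = 5.26e-05). ITGA6, which overlaps AC093818.1, rose by 0.40 ± 0.09. COL4A5, a basement membrane collagen, fell by 0.79 ± 0.12, and FN1, fibronectin, by 0.46 ± 0.10 (adjusted p = 0.0509 without replicate 2 at 125 µM). The rises came to 3 without replicate 2 at 125 µM or replicate 1 or 2 at 2.5 µM, and the falls to 1 without replicate 2 at 125 µM and 3 without replicate 1 or 3 at 125 µM or replicate 1 at 2.5 µM. Several inhibitors of extracellular proteases rose: of 15 genes of the urokinase and metalloprotease list 4 rose and 1 fell. TIMP1 had 26.1, 28.3 and 29.4 CPM at 125 µM and 9.18, 12.6 and 16.2 CPM at 2.5 µM (log2 fold change 1.23 ± 0.17, adjusted p = 0.000315). TIMP2 and SERPINE2 rose by 0.85 ± 0.14 and 0.72 ± 0.14. MMP11, a protease that overlaps CHCHD10, fell by 1.02 ± 0.21. PLAU, urokinase, and PLAUR, its receptor, did not pass (95% intervals -1.31 to 1.87 and 0.22 to 1.54).

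Immediate early genes and feedback inhibitors of ERK signalling rose in part. Of 27, 8 rose and 1 fell, with a median of -0.02. EGR1, a growth-factor-induced factor, had 24.8, 26.6 and 24.2 CPM at 125 µM and 11.3, 8.46 and 6.87 CPM at 2.5 µM (log2 fold change 1.44 ± 0.16, adjusted p = 5.75e-05); the controls, at 26.9, 22.6 and 21.8 CPM, were at the 125 µM level, so that 2.5 µM was the low group. DUSP5, a phosphatase of nuclear ERK, had 43.3, 54.5 and 51.8 CPM at 125 µM and 15.5, 15.4 and 24.2 CPM at 2.5 µM (log2 fold change 1.54 ± 0.15, adjusted p = 3.17e-05), with controls at 7.65 ± 0.455 CPM. FOSL1 and SPRY4 rose by 1.04 ± 0.14 and 0.93 ± 0.12, the latter overlapping AC005592.2, and ZFP36, which degrades inflammatory mRNAs, by 0.92 ± 0.12. DUSP6, MYC and CCND1 did not pass (95% intervals -0.05 to 0.37, -0.22 to 0.15 and -0.14 to 0.27).

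Most of the tested Wnt targets fell. Of 16, 9 fell and 1 rose, with a median of -0.33. Besides DKK1, SLC1A2, a glutamate transporter of pericentral hepatocytes, had 73.7, 76.5 and 75.98 CPM at 125 µM and 135, 147 and 131 CPM at 2.5 µM (log2 fold change -0.87 ± 0.10, adjusted p = 6.18e-05). TNFRSF19 had 74.4, 60.5 and 66.8 CPM at 125 µM and 104, 142 and 126 CPM at 2.5 µM (log2 fold change -0.88 ± 0.12, adjusted p = 0.000272). SP5, a direct Wnt target, fell by 0.47 ± 0.08, and LGR5, a stem cell receptor that overlaps TSPAN8, by 0.56 ± 0.13 (adjusted p = 0.0538 without replicate 2 at 2.5 µM). AXIN2, the standard readout, fell by 0.35 ± 0.09 (adjusted p = 0.0536 to 0.112 without replicate 1 or 2 at 125 µM or replicate 2 at 2.5 µM). TCF7, a partner of beta-catenin that overlaps SKP1, was the 1 that rose, by 0.85 ± 0.13. The falls came to 5 without replicate 1 or 2 at 125 µM. HepG2 cells carry a stabilised beta-catenin, so this pathway is on without a ligand.

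Other signalling lists gave calls in both directions, except the TGF-beta list. Of 21 NF-kB and inflammatory genes 4 fell and 2 rose: NFKBIZ, which overlaps NXPE3, and CCL20, a chemokine, fell by 0.96 ± 0.15 and 0.60 ± 0.11, and NFKBIA, the inhibitor, by 1.01 ± 0.23 (adjusted p = 0.0546 to 0.056 without replicate 2 at 125 µM or replicate 2 at 2.5 µM). IL6R, the interleukin 6 receptor, rose by 1.15 ± 0.16. The falls came to 2 without replicate 2 at 2.5 µM. Of 17 clock genes 5 fell and 1 rose, with a median of -0.29: PER1 by 0.80 ± 0.15, RORA by 0.81 ± 0.16 and DBP, an output factor that overlaps SPHK2, by 1.57 ± 0.34 (adjusted p = 0.0556 without replicate 2 at 125 µM). NR1D2, which overlaps NKIRAS1, fell by 0.59 ± 0.13 (adjusted p = 0.0521 without replicate 2 at 125 µM). The TGF-beta list had 3 falls and no rise in 18, BMP4 falling by 0.42 ± 0.09, and ID1 and SMAD7 did not pass. Its falls came to 1 without replicate 1 or 2 at 125 µM, 5 without replicate 2 of the control and 6 without replicate 1 of the control. Of 21 gluconeogenesis, insulin and IGF genes 6 rose and 2 fell. IGFBP6 and IGFBP4, which bind IGF, rose by 1.10 ± 0.22 and 0.96 ± 0.19, INSIG2 fell by 0.53 ± 0.11, and PCK1, the key enzyme of gluconeogenesis, did not pass (95% interval 0.03 to 0.62). The count of falls was 1 without replicate 1 or 3 at 125 µM or replicate 1 at 2.5 µM.

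Glycolysis and hypoxia genes gave more falls than rises, with 15 falls and 4 rises in 38 and a median of -0.28. PDK1, which holds pyruvate out of mitochondria and overlaps AC093818.1, had 129.9, 144 and 128 CPM at 125 µM and 177, 201 and 185 CPM at 2.5 µM (log2 fold change -0.48 ± 0.09, adjusted p = 0.00241). BNIP3, a mitophagy receptor, had 302, 352 and 344 CPM at 125 µM and 422, 526 and 556 CPM at 2.5 µM (log2 fold change -0.59 ± 0.11, adjusted p = 0.00296). P4HA1, a collagen hydroxylase, fell by 0.42 ± 0.09. LDHA, lactate dehydrogenase, fell by 0.37 ± 0.09 (adjusted p = 0.0541 to 0.0552 without replicate 3 at 125 µM or replicate 2 at 2.5 µM). CA9, a carbonic anhydrase and standard hypoxia marker that overlaps ARHGEF39, fell by 0.57 ± 0.14 (adjusted p = 0.0553 to 0.0734 without replicate 1 or 3 at 125 µM or replicate 2 at 2.5 µM). PFKP, an isoform of phosphofructokinase, rose by 0.90 ± 0.14, as did CA12, given above. The count of falls was 6 without replicate 1 or 3 at 125 µM, 7 without replicate 2 at 2.5 µM and 8 without replicate 3 at 2.5 µM, and that of rises 2 without replicate 2 at 125 µM. Over control the median of the list was 0.28 at 2.5 µM and 0.03 at 125 µM. The summed level of its tested members was 23240 to 26470 CPM at 125 µM, 24360 to 28740 CPM at 2.5 µM and 20600 to 22020 CPM in the controls. The ranges of the exposed groups overlapped.

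Most transcripts of the mitochondrial genome rose. Of its 13 tested protein genes 11 rose and none fell, with a median of 0.38. MT-ND4, a subunit of complex I, had 12891, 12607 and 11230.4 CPM at 125 µM and 8283, 8426 and 7716 CPM at 2.5 µM (log2 fold change 0.59 ± 0.10, adjusted p = 0.0016). MT-ND2 had 2276, 2379.9 and 2291 CPM at 125 µM and 1597, 1678 and 1589 CPM at 2.5 µM (log2 fold change 0.51 ± 0.08, adjusted p = 0.00116). MT-ATP8, which overlaps MT-ATP6, rose by 0.65 ± 0.10, and MT-ND1 by 0.50 ± 0.10; MT-ND4 overlaps MT-ND4L. Together the mitochondrial genome took 9.69, 9.51 and 8.85% of gene reads at 125 µM, 7.17, 7.19 and 6.82% at 2.5 µM and 7.64, 7.58 and 8.64% in the controls. The difference between the exposed groups was 2.29 percentage points (exact two-sided permutation test over libraries, p = 0.1, the smallest that 3 against 3 can give). Rises numbered 5 without replicate 2 at 125 µM and 7 without replicate 1 at 125 µM or replicate 2 or 3 at 2.5 µM. Of 72 nuclear genes of oxidative phosphorylation, 1 rose and 1 fell, NDUFV1 by 0.41 ± 0.09 and NDUFA2, which overlaps IK, by 0.42 ± 0.13 (adjusted p = 0.054 to 0.22 without replicate 1, 2 or 3 at 125 µM or replicate 2 or 3 at 2.5 µM or replicate 3 of the control). Their median was 0.10, and without replicate 3 at 2.5 µM 3 rose.

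Few ribosomal protein genes were called. Of 80 tested, 1 fell (RPS27L, which overlaps LACTB, by 0.43 ± 0.13; adjusted p = 0.0569 to 0.222 without replicate 1, 2 or 3 at 125 µM or replicate 2 or 3 at 2.5 µM or replicate 3 of the control) and none rose, and the median was 0.00. They took 6.08, 6.34 and 6.05% of reads at 125 µM, 4.96, 6.62 and 6.61% at 2.5 µM (exact permutation p = 1) and 4.09 ± 0.222% in the controls (SD, n = 3). Replicate 1 at 2.5 µM was the lowest of the exposed libraries, and without it 10 of the 80 fell. Over control the median of the list was 0.53 at 2.5 µM and 0.58 at 125 µM. ALB alone took 1.39, 1.22 and 1.78% of reads at 125 µM and 3.02, 2.68 and 2.15% at 2.5 µM (exact permutation p = 0.1). Introns of nuclear genes took 4.74 ± 0.247% and 5.58 ± 1.41% (exact permutation p = 0.5). These 4 shares were compared by the exact test, and none can pass 0.05 with 3 libraries a group.

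**Figure D5:**
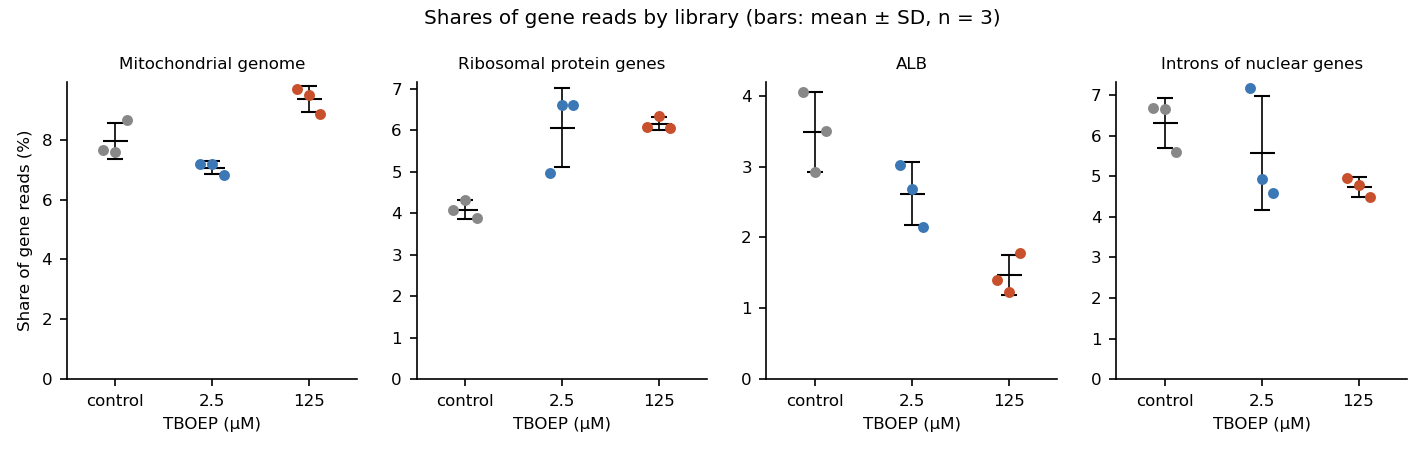
Share of gene reads (%) taken by the mitochondrial genome, by ribosomal protein genes, by ALB and by introns of nuclear genes in each library; bars are mean ± SD (n = 3). The mitochondrial share is highest at 125 µM and the ALB share is lowest there, while the ribosomal share is about 6% at both concentrations against 4.09% in the controls.

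Solute transporters gave 4 rises and 3 falls in 18. Of the aquaporins, AQP3 and AQP8 rose, as given above, whereas AQP6 fell. The AQP6 call was lost without replicate 1 or 2 at 125 µM or replicate 1 or 2 at 2.5 µM (adjusted p = 0.0592 to 0.077). SLC16A6, a monocarboxylate transporter of ketone bodies that overlaps ARSG, also rose. It had 8.74, 16.02 and 8.44 CPM at 125 µM and 1.63, 1.77 and 7.67 CPM at 2.5 µM (log2 fold change 2.20 ± 0.41, adjusted p = 0.00282). SLC16A5, with 57.9% of its reads in introns, rose by 1.62 ± 0.23. SLC6A12, the betaine transporter of osmotic stress, had 9.10, 2.41 and 12.5 CPM at 125 µM and 28.1, 71.02 and 10.1 CPM at 2.5 µM (log2 fold change -2.65 ± 0.71, adjusted p = 0.0223; adjusted p = 0.0589 to 0.145 without replicate 1 or 2 at 125 µM or replicate 2 at 2.5 µM). The falls came to 0 without replicate 1 at 125 µM or replicate 2 at 2.5 µM and 1 without replicate 2 at 125 µM or replicate 1 at 2.5 µM. Of 11 iron genes 2 rose, the ferritins, and 3 fell, among them CP, ceruloplasmin, which overlaps HPS3, by 0.45 ± 0.09; TFRC, the transferrin receptor, did not pass (-0.17 ± 0.11, 95% interval -0.41 to 0.07). The rises of iron genes came to 1 without replicate 1 at 125 µM, and the falls to 1 without replicate 1 or 2 at 125 µM. The 31 ribosome biogenesis factors had 3 rises and no fall, MYBBP1A by 0.39 ± 0.09 (adjusted p = 0.0624 without replicate 1 at 125 µM) and TCOF1 by 0.36 ± 0.08 among them, and 1 without replicate 1 at 125 µM.

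Most markers of other cell types had too few reads to be tested, and several defining ones had 0. JUNB and ME1, which many cell lines express, also had 0 reads in all 9 libraries, so a 0 in these files need not mean that a gene is silent. Of the 3 endothelial markers tested, ESAM and TIE1 rose. VWF, the other, did not pass and had a log2 fold change below 0. TIE1 rose by 2.15 ± 0.48 (adjusted p = 0.0699 to 0.0931 without replicate 2 at 125 µM or replicate 2 at 2.5 µM), with 1.70, 2.99 and 2.20 CPM against 0.478, 0.279 and 1.62 CPM. The defining endothelial genes KDR and EMCN had 0 reads in the 6 exposed libraries, TEK had 1, and CDH5 had 31 at 125 µM and 19 at 2.5 µM. The summed level of the 3 tested members was 12.9 to 15.7 CPM at 125 µM, 2.88 to 4.04 CPM at 2.5 µM and 2.57 to 5.35 CPM in the controls. At 125 µM most of it was ESAM, and KDR, EMCN, TEK and CDH5 are not part of it. Of blood cell markers, PTPRC, CD3E and MS4A1 had 0 reads in all 9 libraries. Among the 6 tested, CD22 rose by 1.84 ± 0.38 and LYZ, which overlaps RP11-1143G9.4, fell by 0.43 ± 0.10 (adjusted p = 0.0607 to 0.0691 without replicate 2 at 125 µM or replicate 2 at 2.5 µM). LYZ made up most of the summed level of the tested members of that list, 1869 to 2070 CPM at 125 µM against 2532 to 2879 CPM at 2.5 µM. Of stellate and fibroblast markers COL1A2, DCN and LUM had 0 reads, and 2 were tested. PDGFRB, with 13.5, 9.54 and 13.6 CPM against 17.9, 25.9 and 18.6 CPM, fell by 0.85 ± 0.18 (adjusted p = 0.0511 to 0.0602 without replicate 2 at 125 µM or replicate 2 at 2.5 µM). The 6 bile duct markers tested gave 1 rise, KRT19, and 1 fall, PROM1, by 0.78 ± 0.21 (adjusted p = 0.0502 to 0.115 without replicate 1, 2 or 3 at 125 µM or replicate 2 at 2.5 µM). KRT19 was the only 1 above 0, and 5 lay below. The summed level of these 6 was 1134 to 1584 CPM at 125 µM and 1563 to 2058 CPM at 2.5 µM. Neural markers gave no call, with 1 tested. Of 14 hepatocyte markers 7 fell and none rose, and those 7 also belong to the plasma protein or apolipoprotein lists. The falls came to 3 without replicate 1 at 125 µM and 4 without replicate 3 at 125 µM or replicate 2 at 2.5 µM.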

How the data were processed

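The 9 HepG2 cultures were sequenced as paired reads of stranded, poly(A)-selected libraries, per the labels' protocols. The authors mapped reads to hg19 with CLC Genomics Workbench and assigned them to genes, according to the series' design text. No version is given in the sources used here, nor the strand setting of the counting, so reads of overlapping genes cannot be told apart. Deposited counts are whole reads per gene without normalisation, given for all, unique, exonic and intronic reads, per the file headers. RPKM as deposited is exonic reads scaled by exon length and depth, per the file headers. The quantile-normalised signal is also the authors' own, per the design text.

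All reads per gene were used. After filterByExpr and TMM scaling, 12901 genes were tested by quasi-likelihood in edgeR 4.0.16 (R 4.3.3), with 3 groups over all 9 libraries and no covariate. The contrast was 125 minus 2.5 µM, two-sided, and p-values were adjusted by Benjamini-Hochberg over these genes (threshold 0.05). Genes varied by 10% between replicates at the common dispersion. Standard errors were derived from the test: each is the size of the log2 fold change over the square root of its F. The 95% intervals were built from these errors, which are approximate for genes with few reads. The fit was also run on counts simulated at the mean levels and fitted spread, with 2.5 µM set equal to control. No library stood apart in that simulation, so it cannot speak for the libraries that did here. Starts are printed 1-based. Depth was 2480964 to 11885877 gene reads; 3 reads equal 0.252 to 1.21 CPM.

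Named are, first, the 12 called genes with the largest rise and the 12 with the largest fall, given at least 2 CPM on average in the 6 exposed libraries and separate groups. Next come the 5 rises and 5 falls of smallest adjusted p, preset key members of 50 lists, and members taken from each list's 5 calls of smallest adjusted p. Some genes that this rule names are not reported here. FGG, ATF3, SLC3A2, SLC7A1 and untested markers were named after their values were seen. The comparison, lists and members were chosen with earlier results of these data known.

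There were 27 alternatives. They were RLE and upper-quartile scaling, DESeq2 1.42.0, no filter or a filter of 10 reads and 1 CPM, robust dispersion, only the 6 exposed libraries, a replicate block, unique or exonic reads, and a 1.5-fold minimum. With limma 3.58.1 they were log2(RPKM + 0.5), also unfiltered, log2(RPKM + 0.1) and log2 quantile values. Each library, and each replicate number in all groups, was left out.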

Additional observations from a re-analysis of the deposited data

How the results depend on the processing

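The 1925 calls (965 higher, 960 lower) came to 1373 with DESeq2 (634 and 739) and, with limma, to 968 on RPKM + 0.5 (666 and 302), 864 on RPKM + 0.1 (577 and 287), 709 on unfiltered RPKM (497 and 212) and 903 on quantile values (465 and 438). Against a 1.5-fold minimum 122 remained (75 and 47). Scaling, filter, robust dispersion, unique or exonic reads and the 6 exposed libraries alone gave 1885 to 2337. Leaving out 1 library gave 799 to 2230 calls, 445 to 1093 higher and 354 to 1143 lower; leaving out replicate 1, 2 or 3 of all groups gave 1168 (575 and 593), 668 (333 and 335) and 923 (501 and 422), with fewer libraries. The cause of the other shifts was not tested. No call reversed among the 235 named genes that were called; 160 kept their call in all 9 single-library omissions and 37 in all 27 alternatives. The ribosomal share differed by 0.0892 percentage points, by -0.461 without replicate 1 at 2.5 µM and by 0.365 without replicate 2 there. With the replicate number as a block 1771 genes were called (867 and 904), and the rises of the mitochondrial genome went from 11 to 7 and those of the proteasome from 4 to 2. Deviations from the group means correlated at 0.248, -0.328 and -0.015 between exposed libraries of the same number. Between those of different numbers they correlated at -0.268 to 0.28. These values showed no pairing by number, but so few pairs cannot exclude it. The shallow replicates, 2480964 and 2670690 reads, limit genes of a few CPM.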
